A study of Mus musculus with 138 samples.

Results

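The genes described here encode the proteasome and its activators, including the interferon-inducible subunits that make the immunoproteasome. They were taken by name: every array probe whose target name begins with PSM, then A, B, C, D, E or G and a number, was taken, and it was kept if its detection p-value was under 0.05 in at least 14 of 138 mice. The rule named 75 of the 45281 probes of the array and kept 63, which stand for 39 of 42 named genes, out of 24450 kept probes and 16617 kept genes in all. The 12 probes that were not kept include every probe of Psma1, Psma6 and Psmc6, so these 3 genes were not measured. Lead probes, the kept probe of a gene with the highest mean, were detected in every mouse for 35 of the 39 genes. Some names go against the label. Psmd5, Psmd9 and Psmd10 are known as chaperones that assemble the base of the cap and are not subunits of the finished particle. Psmc3ip matched the name rule and encodes a meiotic recombination protein, not a subunit, and Psme2b is a copy of Psme2 whose signal cannot be told apart from that of Psme2 here, since probe sequences were not used, although the lead probes of both had r = -0.029 across mice.

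Lungs came from 138 mice of the pre-Collaborative Cross, partially inbred lines founded from the strains 129S1/SvImJ, A/J, C57BL/6J, CAST/Ei, NOD/LtJ, NZO/H1LtJ, PWK/Ph and WSB/Ei. Every line gave 1 mouse. All mice had the same treatment: intraperitoneal sensitization with 10 ug of Der p 1, an allergen of the house dust mite, a challenge with 50 ug of it on day 15, and harvest on day 18, 72 hours after the challenge. Sex, age and genotype at any locus are not given in the labels, and no unchallenged mice and no founder strains are among the samples, so every comparison below is across mice and none measures an effect of the allergen. Total RNA of the right lower lobe was hybridised to Illumina WG6v2 bead arrays, 1 array per mouse, and the values are the authors' normalized log2 intensities.

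The proteasome is the protease that degrades ubiquitin-tagged proteins. Its barrel, the 20S core, is built from PSMA and PSMB subunits, of which Psmb5, Psmb6 and Psmb7 are the constitutive catalytic ones. The 19S cap, made of PSMC ATPases and most PSMD proteins, recognises and unfolds substrates. Interferons induce Psmb8, Psmb9 and Psmb10, which replace Psmb5, Psmb6 and Psmb7 in newly made particles, and Psme1 and Psme2, which form the PA28 activator. Together these alter the peptides available to MHC class I molecules. In lung tissue they are made by leukocytes and by epithelial cells exposed to interferon. In whole tissue, a change in the number of cells of a type and a change in RNA per cell cannot be told apart.

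Array-wide facts bear on these genes as follows. Each array detected 19075 to 21472 probes, and the number of arrays limits the precision. Lung markers were bright, with median list levels of 11.9 for alveolar type 2 cells, 10.9 for endothelium and 12.7 for club cells. Cardiac muscle markers ranged in mean level from 6.28 to 10.5 over mice, and skeletal muscle markers reached 11.7 in 1 mouse. None of 4 liver markers was kept. The first principal component of all kept genes held 12.26% of the variance. It correlated with Psmb8 at r = -0.72, with Psme2 at -0.70 and with Psmc5 at -0.66, and with Psmd4 at 0.83 and Psmd13 at 0.80. What lies behind that axis was not tested. The titles carry a number that is below 100 in 73 mice and above it in 65, and the labels do not say what it stands for. Values within these ranges are given where they matter. Replicates of a line are not among the samples, so the spread below holds differences between lines, between mice and between arrays together.

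The promoters of 4 inducible genes are shown because their levels followed interferon-responsive genes across mice, those of Psmb9 within each of its levels. Each is 300 bases of GRCm38.p6 from RefSeq, 250 before to 50 after the start of the gene, read 5′ to 3′ on the gene's strand. Psmb8 is at chr17:34197945-34198244 on the plus strand, Psmb9 at chr17:34187281-34187580 on the minus strand, Psmb10 at chr8:105938343-105938642 on the minus strand and Psme1 at chr14:55578244-55578543 on the plus strand. Capitals mark matches, on either strand, to the interferon-stimulated response element core (TTTC, then 2 bases of any kind, then TTTC) or to the gamma-activated sequence (TTC, 3 bases of any kind, GAA).
Psmb8: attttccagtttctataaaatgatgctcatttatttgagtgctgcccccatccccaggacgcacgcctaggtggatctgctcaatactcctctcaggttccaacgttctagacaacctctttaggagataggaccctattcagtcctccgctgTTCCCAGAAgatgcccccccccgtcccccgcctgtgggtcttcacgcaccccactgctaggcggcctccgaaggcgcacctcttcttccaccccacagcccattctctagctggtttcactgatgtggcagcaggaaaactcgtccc
Psmb9: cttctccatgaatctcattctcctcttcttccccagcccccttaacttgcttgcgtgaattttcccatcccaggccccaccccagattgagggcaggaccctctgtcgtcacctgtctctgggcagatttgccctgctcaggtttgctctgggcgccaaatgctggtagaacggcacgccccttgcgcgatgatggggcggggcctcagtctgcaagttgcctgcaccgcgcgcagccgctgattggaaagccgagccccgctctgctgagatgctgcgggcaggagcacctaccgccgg
Psmb10: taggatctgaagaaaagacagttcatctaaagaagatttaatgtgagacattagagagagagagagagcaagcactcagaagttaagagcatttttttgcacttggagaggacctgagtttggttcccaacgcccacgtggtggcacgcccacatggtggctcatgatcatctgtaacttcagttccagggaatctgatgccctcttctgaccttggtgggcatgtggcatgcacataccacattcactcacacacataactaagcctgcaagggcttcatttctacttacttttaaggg
Psme1: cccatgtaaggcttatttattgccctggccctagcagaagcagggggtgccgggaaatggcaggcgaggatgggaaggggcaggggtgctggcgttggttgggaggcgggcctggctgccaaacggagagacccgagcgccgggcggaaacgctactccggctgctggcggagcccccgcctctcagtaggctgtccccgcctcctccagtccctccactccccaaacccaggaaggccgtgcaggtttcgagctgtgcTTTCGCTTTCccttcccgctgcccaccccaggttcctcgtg
The window of Psmb8 holds the gamma-activated sequence, which starts 97 bases before the gene's start, and that of Psme1 holds the response element core 9 bases after the start. Of 32851 RefSeq promoters of this length, 3.44% hold the core and 8.30% the gamma-activated sequence. RefSeq promoters were matched for 33 of the 39 genes, and among them the core stood in 4 (Psmb3, Psmd4, Psmd9 and Psme1) and the gamma-activated sequence in 2 (Psmb8 and Psmd2). A match is a run of letters and not a measured site. The windows of Psmb9 and Psmb10 hold neither run of letters. Neither do those of Psme2, which are not shown, although its level also rose with interferon-responsive genes.

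The inducible catalytic subunits differed in how widely they varied. Psmb8, which carries the chymotrypsin-like site of the immunoproteasome, ran from 8.21 to 11.8 log2 units over 138 mice with a median of 10.2 (SD 0.558). Psmb10, the counterpart of Psmb7, ran from 10.1 to 11.6 with a median of 10.7 (SD 0.290). Psmb9, the counterpart of Psmb6, ran from 5.67 to 11.1 with a median of 9.07 (SD 1.65), and only it had 2 separated levels among the 5 inducible genes. The spread of Psmb9 was above that of 99.6% of the 16617 kept genes. Both PA28 subunits were narrower: Psme1 ran from 11 to 11.9 with a median of 11.4 (SD 0.182) and Psme2 from 7.63 to 9.78 with a median of 8.57 (SD 0.294).

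The counterparts also differed in spread. Psmb5 ran from 6.87 to 8.91 with a median of 7.46 (SD 0.427). Psmb6 ran from 6.26 to 11.3 with a median of 11 (SD 1.45), and 22 mice lay below an empty stretch of 0.86 log2 units that began at 8.25. Psmb7 ran from 9.29 to 11.5 with a median of 11 (SD 0.455). Psme3, which encodes the PA28 gamma activator found mostly in the nucleus, ran from 9.09 to 10.3 with a median of 9.76 (SD 0.233). Levels of different probes are not compared with each other here, since each probe has its own brightness.

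**Figure D1:**
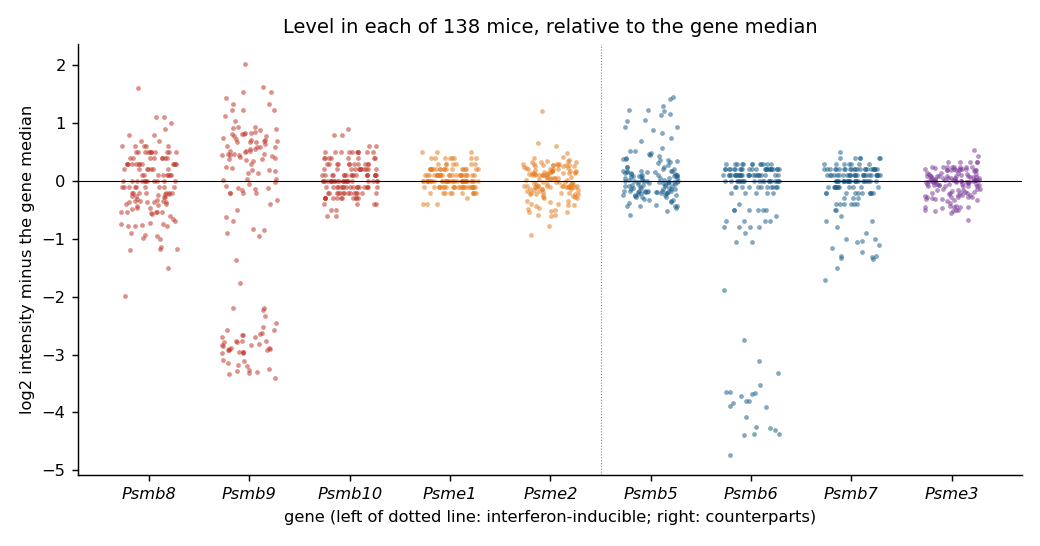
Log2 intensity of 5 inducible genes (left of the dotted line) and 4 counterparts (right) in each of 138 mice, relative to the median of the gene; each point is 1 mouse. Psmb9 has 48 mice at a low level and 90 at a high one, Psmb6 has 22 mice far below the rest, and Psme1 spans 11 to 11.9.

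Levels of the inducible genes were set against the interferon gamma score, the mean z value of 14 interferon gamma-responsive genes outside the proteasome, scaled to an SD of 1. Each gene was fitted on the score with limma, with Benjamini-Hochberg adjusted p-values over the 16603 genes outside the list. Psmb8, Psmb10, Psme1 and Psme2 rose with the score. Psmb8 rose by 0.27 ± 0.042 (SE, n = 138 mice) log2 units per SD (limma adjusted p = 3.8e-07) and Psmb10 by 0.19 ± 0.019 (adjusted p = 2.1e-15). Psme1 rose by 0.12 ± 0.012 (adjusted p = 3.5e-14) and Psme2 by 0.08 ± 0.024 (adjusted p = 0.033). Psmb9 had the steepest fitted slope, 0.38, and did not pass the threshold over all mice (SE 0.136, adjusted p = 0.075).

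In all, 6 of 39 members rose with the interferon gamma score and 0 fell, where 4.93% of all genes tested rose and 1.95% fell. The 6 are 4 of the 5 inducible genes and 2 of the other 34, Psme2b at 0.14 ± 0.037 (adjusted p = 0.0057) and the core subunit Psma5 at 0.06 ± 0.018 (adjusted p = 0.036). None of the 3 constitutive catalytic genes, the 5 ATPases of the cap or the 13 PSMD genes passed the threshold. The median slope was 0.19 over the inducible genes and 0.02 over the other 34 members, against -0.0027 over all genes tested. The slopes of Psmb5 (0.03), Psmb6 (-0.01), Psmb7 (-0.04) and Psme3 (0.04) did not pass.

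On the type I interferon score, built from 13 genes such as Ifit3 that respond to interferon alpha and beta, 3 of 39 members rose and 0 fell, where 3.05% of all genes tested rose and 2.99% fell. These were Psmb10 (0.14 ± 0.022, limma adjusted p = 7.4e-07), Psme1 (0.09 ± 0.014, adjusted p = 8.4e-08) and Psme2b (0.16 ± 0.036, adjusted p = 0.001). Psmb8 had a slope of 0.14 (adjusted p = 0.056) and Psme2 one of 0.03 (adjusted p = 0.59). With the first principal component as a covariate these became 0.22 (adjusted p = 1.11e-09) and 0.07 (adjusted p = 0.0125), both past the threshold, and Psmb8 also passed with the mean of its probes (0.19, adjusted p = 0.000304). With T cell, B cell, monocyte and dendritic scores as covariates neither passed, at 0.07 (adjusted p = 0.38) and -0.00012 (adjusted p = 0.998). The interferon scores correlated with each other at r = 0.683 across the 138 mice, so their fits are not separate lines of evidence, and no difference between them was tested.

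**Figure D2:**
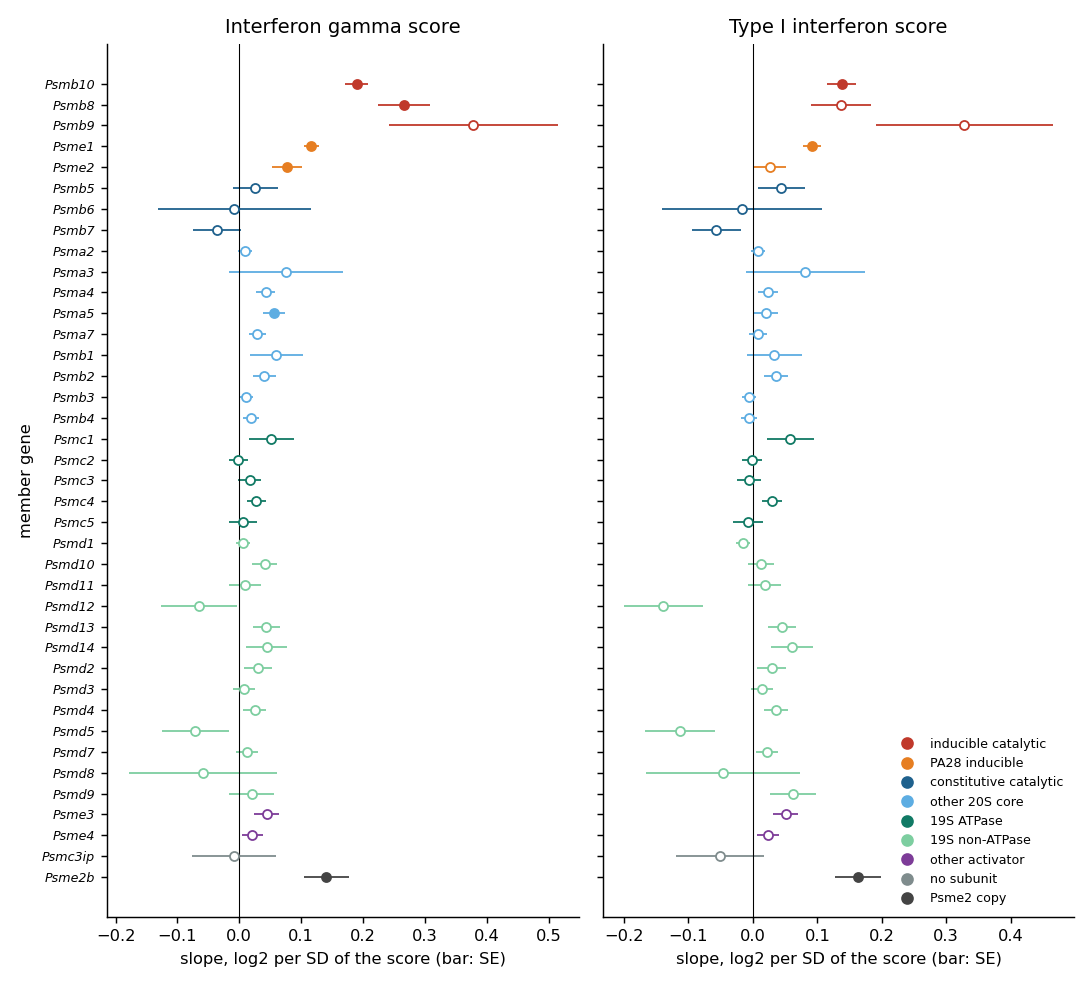
Fitted slope (log2 units per SD of the score) of each of 39 members on the interferon gamma score (left) and the type I interferon score (right), with bars of 1 SE; filled points passed an adjusted p of 0.05. In the left panel 6 points are filled, Psmb8, Psmb10, Psme1, Psme2, Psma5 and Psme2b, and in the right panel 3.

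Leukocyte scores moved with the interferon gamma score, at r = 0.460 for T cells, 0.532 for monocytes and dendritic cells and 0.207 for B cells. With these scores as covariates the slopes were 0.21 for Psmb8 (adjusted p = 0.014), 0.17 for Psmb10 (adjusted p = 2.5e-08) and 0.11 for Psme1 (adjusted p = 2.5e-08), while Psme2 fell short at 0.04 (adjusted p = 0.79). The mice of lines OR5513 and OR1427 stood farthest out on the score, at 3.86 and 3.12 SD, and without them 4 members passed, where 2.59% of all genes rose, with Psme2 at 0.07 (adjusted p = 0.17) and Psma5 at 0.05 (adjusted p = 0.17) no longer among them. Within the title numbers below 100 the slopes of Psmb8, Psmb10, Psme1 and Psme2 were 0.33, 0.23, 0.10 and 0.12, all past the threshold. Above 100 they were 0.19 (adjusted p = 0.057), 0.15, 0.13 and 0.03 (adjusted p = 0.69), and Psmb10 and Psme1 passed.

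Within its levels Psmb9 followed the interferon gamma score. In the 48 mice at the low level, with a mean of 6.23, its slope was 0.23 ± 0.037 log2 units per SD (Pearson's r = 0.674, Spearman's rho = 0.650). In the 90 mice at the high level, with a mean of 9.49, it was 0.34 ± 0.054 (r = 0.558, rho = 0.529). In 100000-draw two-sided permutation tests adjusted over the relations of 7 genes with 9 scores in each level, p was 0.000315 for r and 0.00042 for rho in both levels; the unadjusted p was 1e-05, the smallest these draws can give. Without the 2 farthest mice r was 0.637 and 0.556. The levels lay 3.26 log2 units apart, a fold of 9.58. On the type I interferon score r was 0.516 in the high-level mice (adjusted permutation p = 0.000315), and in the low-level mice r was 0.517 (adjusted p = 0.00432) with a rho of 0.407 that did not pass (adjusted p = 0.0756).

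**Figure D3:**
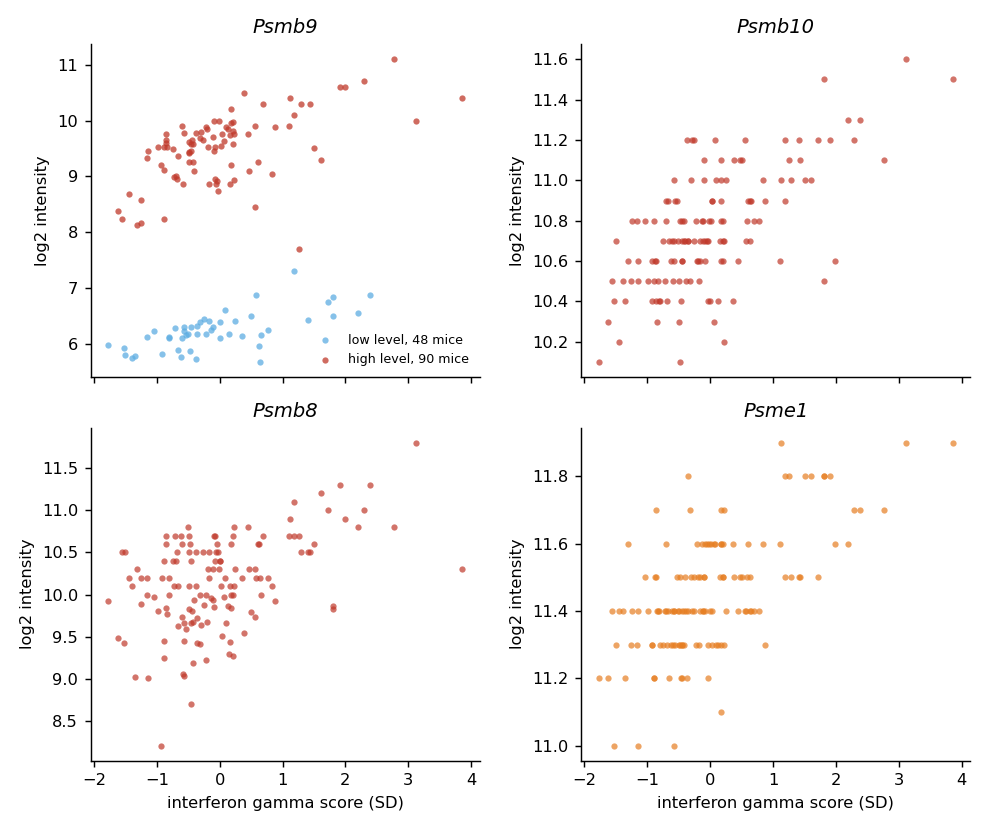
Log2 intensity of Psmb9, Psmb10, Psmb8 and Psme1 against the interferon gamma score (in SDs); each point is 1 of 138 mice. The Psmb9 panel shows 48 low-level and 90 high-level mice, and in both sets the points climb with the score (r = 0.674 and 0.558).

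The difference of an inducible gene from its counterpart tests whether one moved more than the other. Psmb10 minus Psmb7 rose by 0.227 ± 0.048 (SE, n = 138) log2 units per SD of the interferon gamma score (r = 0.374, rho = 0.386; permutation p adjusted over 45 relations 0.001125 and 0.00045). It rose by 0.194 ± 0.049 on the type I score (adjusted permutation p = 0.003). Without the 2 farthest mice r on the interferon gamma score was 0.364. The lead probe of Psmb7, used here, had r = 0.195, 0.491 and 0.256 with the other kept probes of that gene. Psmb8 minus Psmb5, taken without the 16 mice at the higher level of Psmb5, rose by 0.217 ± 0.047 per SD of the interferon gamma score. There r was 0.386 and rho 0.353 (permutation p adjusted over 6 relations 0.00018 and 0.00012), and r was 0.358 without the 2 farthest mice. On the type I score the same difference gave 0.086 ± 0.051 and did not pass. Its r was 0.150 and its rho 0.090 (adjusted permutation p = 0.144 and 0.325).

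The other differences were smaller or passed by 1 measure alone. Psme1 minus Psme3 gave 0.072 ± 0.023 (r = 0.260, adjusted permutation p = 0.0241), while its rho of 0.202 did not pass (adjusted p = 0.0607). Psme2 minus Psme3 gave 0.033 ± 0.037 (adjusted permutation p = 0.503). Psmb9 minus Psmb6 passed by rank in the 90 high-level mice (rho = 0.416, permutation p adjusted over 6 relations 0.00014) and in the 48 low-level mice (rho = 0.351, adjusted p = 0.0236). By Pearson's r it passed in neither (0.205, adjusted p = 0.104, and 0.217, adjusted p = 0.168), and the 22 mice far below the rest in Psmb6 stretch that difference. In the range of title numbers below 100 Psmb10 minus Psmb7 rose by 0.336 (adjusted permutation p = 0.00045), and in the range above it gave 0.106 (adjusted p = 0.359).

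The inducible genes went together to different degrees. Psmb8 and Psme2, on chromosomes 17 and 14, had r = 0.798, and Psmb8 and Psme1 had 0.461. Psmb10 correlated with Psme1 at 0.390, Psme1 with Psme2 at 0.359 and Psmb10 with Psmb8 at 0.208. These 5 of 10 pairs passed a permutation test of r adjusted over 741 member pairs (the last at p = 0.0495, and not by rho, at 0.192), and in the same order rho was 0.727, 0.386, 0.351, 0.324 and 0.142 and r without the 2 farthest mice was 0.762, 0.431, 0.323, 0.332 and 0.151. Psmb9 had r between 0.086 and 0.163 with the other 4 over all mice, a description only since its values form 2 clusters. With the first principal component held constant, the pair Psmb8 and Psme2 had r = 0.597, Psmb10 and Psmb8 0.684, and Psmb10 and Psme2 0.625 against 0.189 without that step.

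Chromosome neighbours were also compared. Psmb8 and Psmb9 lie beside Tap1 and Tap2, which encode the peptide transporter of class I loading, in the MHC region of chromosome 17. Psmb8 had r = 0.427 with Tap1 and 0.127 with Psmb9, although they are 2 genes apart. Psmb8 was closer to Tapbp, the tapasin chaperone of class I loading 20 genes away (0.776), and to H2-DMa (0.582). Psmb9 was closest, among the genes compared there, to the class II gene H2-Aa (0.523). Correlations across genes on 1 array share its brightness and normalization, and these values are given with no test.

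Ranked over all kept genes outside the family, the genes most like each inducible subunit fell into different kinds. The measure was Pearson's r of the log2 levels over 138 mice. For Psmb10 the 4 most alike were Tap2 (0.64), LOC381010 (0.60), Nlrc5 (0.60), a transactivator of class I genes, and Gfi1 (0.60). For Psme1 they were LOC626578 (0.61), the interferon-induced GTPase gene Gbp2 (0.59), 4933430F08RIK (0.59), Ifit2 (0.58) and Igtp (0.58). For Psmb8 they were Rnf114 (0.80), Tapbp (0.78), Pfkp (0.77), H2-M3 (0.75) and Ube2l6 (0.75). For Psme2, which like Psmb8 followed the first principal component, they included Mtch2 (0.78), Med10 (0.77), Mrpl18 (0.77) and Memo1 (0.77). For Psmb9 they were BC066107 (0.60), H2-Aa (0.52), Gm7030 (0.51), Abhd16a (0.50) and Mucl3 (0.49), and all 9 of its 10 most alike genes that could be placed lay on its own chromosome.

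Genes of class I peptide loading moved with the same score as the inducible subunits. Of 12 kept members of that list, 6 rose with the interferon gamma score and 0 fell: Nlrc5 (0.52), Tap1 (0.51), H2-Q7 (0.25), Tap2 (0.23), H2-T23 (0.22) and H2-D1 (0.05). The shares over all genes were 4.93% and 1.95%. The median slope of the list was 0.14 against -0.0027 over all genes. Tapbp had 0.08 and B2m, the light chain of class I, 0.06, and neither passed. Of 21 kept genes that assemble, feed or regulate the proteasome, among them Pomp, the assembly chaperone, and the ubiquitin gene Ubb, 0 passed in either direction, where 4.93% of all genes rose and 1.95% fell; with limma at an unadjusted p under 0.05 the count was 2. Their median slope was -0.001.

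Among the remaining core and cap subunits, most levels were tight. The 5 lowest SDs were those of Psmb3 (0.123), Psmd1 (0.126), Psma2 (0.130), Psmb4 (0.146) and Psma7 (0.161), and the deposited values come in steps of 0.1 log2 units from 10 upwards, which is close to these SDs. Psma2, a ring subunit of the core, ran from 12.1 to 12.6 with a median of 12.4. In contrast 4 of 39 members had an SD over 1, Psmb9 (1.65), Psmb6 (1.45), the cap subunit Psmd8 (1.41) and the ring subunit Psma3 (1.09), where 2.28% of all kept genes did. In all, 18 of 39 members had an SD above the median of all kept genes.

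Separate levels were found in some members. A mixture of 2 normal distributions called 2 levels in 7 of 39 members, where 5.94% of all kept genes were called. Psma3 had 22 mice at 8.67 and the others at 11.5, with no mouse between 9.74 and 10.7. Psmd8 had 34 mice at 6.89 and the others at 9.90, a fold of 8.10. Psmd12 had 71 mice at 7.91 and 67 at 9.25, a fold of 2.53.

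The other calls were smaller or closer to the detection limit. Psmb5 had 16 mice at 8.52 and the others at 7.45, with no gap between neighbouring values wider than 0.12. In Psmd5 and Psmd9 the low level (8 mice at 5.28 and 14 at 5.32) is near the limit, and these probes were not detected in 9 and 12 mice. Psmb6 was not called at the chosen separation of 3 SDs, although 22 of its mice lay apart. Both of its kept probes showed this spread and ranked mice alike (r = 0.995 and rho = 0.832). Whether these probes overlap is not known here, since probe sequences were not used. Psma3, Psmb5, Psmb9, Psmd5 and Psmd8 each have 1 kept probe, so no second probe bears on their levels. The second probes of Psmd12 and Psmd9 showed no 2 levels and had r = 0.17 and 0.069 with the lead probe. That of Psmd12 was detected in 67 mice, and that of Psmd9 in more mice than its lead probe.

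Probes of 1 gene did not always go together. In 24 pairs of a lead probe with another kept probe of its gene, over 19 genes, r exceeded 0.5 in 6, lay between 0.2 and 0.5 in 7 and was lower in 11. Psmd14 (0.879), Psmb8 (0.828) and Psmb10 (0.796) were among the first. Psmc5, a cap ATPase, had a lead probe with an SD of 0.267 and another probe with an SD of 1.64 that ran from 5.02 to 10.9. Values of a gene in this family can therefore differ with the probe. The count on the antioxidant score below also changed with the mean of probes. That setting alters the score and all other genes as well, and the cause of the change was not tested.

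For some members the most alike genes lay nearby on the chromosome. Among the 10 most alike genes outside the family, 8 lay within 100 genes on the chromosome for Psma3, 7 for Psmb9 and Psmd9, 6 for Psmb5 and 9 for the cap ATPase Psmc1. Other wide members had fewer, with 2 for Psmb6 and Psmd5, 1 for Psmb8 and 0 for Psmb1. At any distance, all 9 placed genes most like Psmb6 lay on its own chromosome, as did all 9 for Psmb7. For Psmd5 it was 2 of 9, for Psmb8 2 of 8 and for Psmb1 0 of 8. No share over all genes was taken for that wider measure. Nearness within 100 genes (at least 3 of 10) was found for 11 of 39 members, or 28.2%, where 16.9% of 12549 placed genes had it. Of the 782 placed genes with 2 levels, among 987 kept genes called, 79.5% had it. Among the narrower members Psma2, Psmb2 and Psmd4 had 0 of 10 nearby, while Psma5 had 6 and Psmc3 had 3. This ranking was extended from the inducible genes to all members after values were seen.

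**Figure D4:**
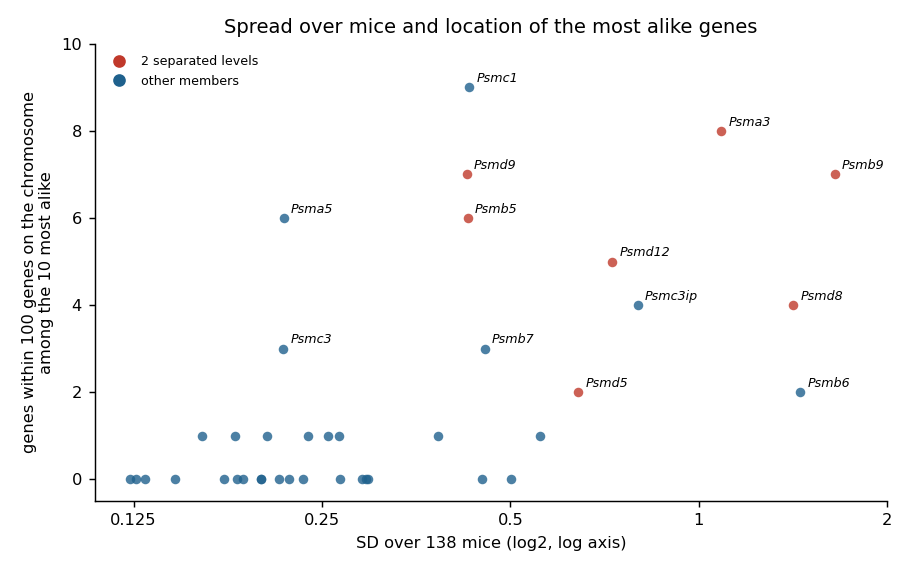
SD over 138 mice (log2, on a log axis) against how many of the 10 most alike genes lay within 100 genes on the chromosome, for 39 members; red points had 2 separated levels. Of the 7 red points 6 have at least 4 nearby genes and Psmd5 has 2; members with an SD under 0.3 have 0 or 1, apart from Psma5 (6) and Psmc3 (3).

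Members were also compared with each other across mice. Of 741 member pairs, 210 passed, 69 of them with a negative r, in permutation tests adjusted over the pairs. Among all member pairs 12.0% had r over 0.3, where 5.46% of the pairs of all kept genes did; among 496 constitutive pairs the share was 13.7% with a median r of 0.033, and among 160 pairs of an inducible with a constitutive gene it was 7.5% with a median of 0.021. The closest pairs were the cap subunits Psmd13 and Psmd4 (r = 0.844), Psmb1 and Psmd2 (0.659) and the ring subunits Psma2 and Psma4 (0.658). With the first principal component held constant these became 0.541, 0.695 and 0.634. The lowest r were those of Psmc5 with Psmd4 (-0.544) and Psmb8 with Psmd4 (-0.538), and with that component held constant they became 0.006 and 0.139.

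**Figure D5:**
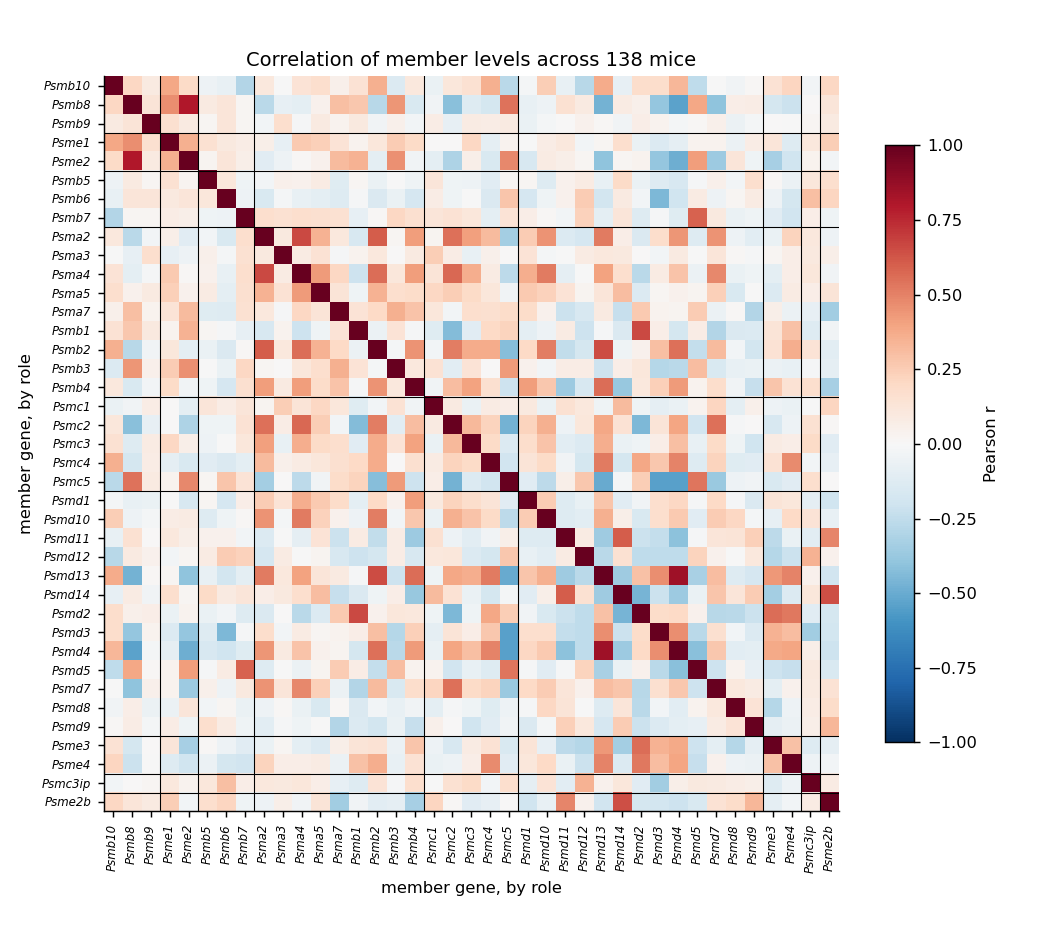
Pearson's r between the log2 levels of each pair of 39 members over 138 mice (colour, from -1 to 1), ordered by role, with lines between roles. Psmb8 and Psme2 stand out at the top left (0.798), Psmd13 and Psmd4 in the block of cap subunits (0.844), and Psmb9 is pale against nearly every other member.

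Many core subunits moved with the proliferation score, the mean z value of 9 cell cycle genes. With it 16 of 39 members rose and 0 fell, where 14.5% of all genes tested rose and 15.4% fell. Of the 9 core subunits that are neither catalytic nor inducible 7 rose, led by Psmb1 (0.23 ± 0.038, limma adjusted p = 4.9e-07) with Psmb2 (0.08), Psma4 (0.06), Psma5 (0.06), Psma2 (0.04), Psmb3 (0.04) and Psma7 (0.04). Among PSMD genes the base subunit Psmd2 rose by 0.10 ± 0.021 (adjusted p = 0.00011), Psmd10 by 0.08 and Psmd13 by 0.06. Psmb8, Psme1 and Psme2 were also among the 16, at 0.12, 0.04 and 0.09. None of Psmb5, Psmb6 and Psmb7 passed. Within the title numbers below 100, 7 members rose (9.51% of all genes), and above 100, 9 (10.2%).

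The type 2 immune score, from 14 genes of the allergic response such as Retnla, gave 11 of 39 members higher and 0 lower, where 12.3% of all genes tested rose and 12.4% fell. The largest slopes were those of Psmb1 (0.16 ± 0.040, limma adjusted p = 0.00087), Psmb10 (0.12 ± 0.023, adjusted p = 9.5e-06), Psmd2 (0.09), Psme4 (0.08), which encodes the PA200 activator, and Psmb2 (0.08). With the mean of its probes Psmd2 had a slope of -0.0072 and did not pass (adjusted p = 0.776). Within the title numbers below 100, 2 members rose, Psmb10 and Psme4 (3.92% of all genes), and both were also among the 8 that rose above 100 (10.1%).

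The leukocyte scores called 10, 4 and 0 members. With the monocyte and dendritic score 10 of 39 rose and 0 fell, where 10.0% of all genes tested rose and 7.84% fell. The 10 were led by Psmb8 (0.18 ± 0.045, limma adjusted p = 0.0013), Psmb10 (0.11) and Psme2 (0.09). They hold 4 of the 5 inducible genes and 6 of the other 34 members. Those 6 are 5 of the 9 core subunits that are neither catalytic nor inducible, and 1 of the 13 PSMD genes. With the T cell score 4 rose and 0 fell, where 6.16% of all genes rose and 2.69% fell: Psmb8 (0.18), Psmb10 (0.12), Psme3 (0.08) and Psme1 (0.05). With the B cell score 0 of 39 passed, where 3.43% of all genes rose and 1.64% fell; with limma at an unadjusted p under 0.05 the count was 5.

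The antioxidant score was built from 9 genes such as Gclm that respond to the factor Nfe2l2. With it 6 of 39 members rose and 3 fell, where 10.1% of all genes tested rose and 16.5% fell. Those that rose were Psmd14, a deubiquitinase of the cap (0.18 ± 0.029, limma adjusted p = 4.1e-07), Psme2b (0.14), the cap subunit Psmd11 (0.12 ± 0.023, adjusted p = 3.6e-05), Psmc1 (0.10), Psme2 (0.07) and Psma5 (0.06). Psmd4, the ubiquitin receptor of the cap, fell by 0.06 (limma adjusted p = 0.0033), as did Psmd3 (-0.06) and Psmd13 (-0.05). The lead probe of Psmd3 was detected in only 42 mice and had a mean of 5.59, near background. In the title numbers below 100, 0 rose and 0 fell, where 2.64% and 5.13% of all genes did, and with limma at an unadjusted p under 0.05 the count was 9. With the mean of probes 12 rose and 3 fell, where 12.6% and 16.5% of all genes did. This score correlated with the first principal component at r = -0.34, and with that component as a covariate 8 rose and 0 fell, where 7.99% and 10.3% of all genes did. Psmd12 followed the antioxidant score within both of its levels, at r = 0.494 in 71 mice and 0.360 in 67 (permutation p adjusted as for Psmb9 0.000315 and 0.0369; rho 0.474 and 0.388).

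With the endoplasmic reticulum stress score 4 of 39 members rose and 2 fell, where 10.2% of all genes tested rose and 15.2% fell. Psmd14 (0.15), Psmb1 (0.14), Psme2b (0.13) and Psmd11 (0.10) rose, and Psmd4 (-0.06) and Psmb4 (-0.04) fell. Psmb5 did not pass over all mice. Without the 16 mice at its higher level, Psmb5 rose with the stress score by 0.089 ± 0.020 log2 units per SD. There r was 0.378 and rho 0.378 (permutation p adjusted as for Psmb9 0.00101 and 0.000945). In the 16 mice at the higher level r was -0.063 and did not pass (adjusted permutation p = 0.924). Psmd11 and Psmd14 went together across mice (r = 0.604), as did Psmd14 and Psme2b (0.645), and holding the first principal component constant left these at 0.578 and 0.653. Of the 21 kept proteasome partners, 5 rose and 0 fell with the stress score, where 10.2% of all genes rose and 15.2% fell. With the antioxidant score 5 rose and 2 fell, where 10.1% of all genes rose and 16.5% fell. Akirin2, which guides proteasomes into the nucleus, rose with both scores (0.12 and 0.13), as did Sem1, a small cap subunit (0.15 and 0.11). Uchl5, a deubiquitinase of the cap like Psmd14, also rose with both (0.10 and 0.09). Usp14, a further deubiquitinase of the cap, fell with the antioxidant score by 0.07.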

How the data were processed

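Lung RNA of 138 mice was measured on Illumina WG6v2 arrays, and the labels give 1 group. The members and gene lists were chosen with earlier results of these data known. Per the file headers the scanner table gives an intensity and a detection p-value per probe and array, neither normalized, as deposited by the authors. Main values are the authors' deposited log2 values, made by quantile normalization with RMA in R 2.9.2 after GenomeStudio, per the submitters' processing notes; a background step is not stated. Each of 138 columns correlated best with its own array (r of at least 0.9959), and every column's median was 5.57, so scale and direction are known and genes were not centred. Values of 10 and above come in steps of 0.1.

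The brightest kept probe by mean stood for a gene, and symbols were updated through RefSeq (GRCm38.p6). Each score is the mean z value of a list's kept genes. Genes were fitted on it with limma 3.58.1 (lmFit, eBayes; R 4.3.3), with Benjamini-Hochberg adjustment over all genes outside the list and a threshold of 0.05. Differences and correlations were tested with 100000 permutations (numpy 2.4.6), two-sided. Calls of 2 levels needed a BIC drop over 10, means more than 1 log2 and more than 3 pooled SDs apart, and at least 5% of mice in the smaller level. The steps were tested on simulated data. Alternatives were neqc values (offset 16), other probe rules and filters, covariates and subsets of mice. Text names every member as needed, the 5 inducible genes and their counterparts in each fit, up to 5 further members per direction with the largest slopes, members of the class I and partner lists, and the 5 genes most like each inducible gene, apart from some that are not reported here.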

Additional observations from a re-analysis of the deposited data

How the results depend on the processing

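No paired analysis was possible because the labels give 1 group, with 1 mouse per line, and array slide as a block was not run because the files used here name no slide. The covariate of the first principal component, the leukocyte covariates, the fits within title ranges and the neqc values within the levels of Psmb9 were added after seeing the data. Of 65 member calls over 9 scores, 61 held with neqc values, 60 with the mean of probes, 64 with the title range as block, 63 with detected probes as covariate, 55 with no filter, 53 without the 2 farthest mice, 58 with the first principal component as covariate, 51 of 61 with T and B cell covariates, and 46 of 64 among probes detected in all mice. Within title numbers below and above 100, where fewer mice enter, 23 and 30 held.

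Counts of members called moved by over 1.5 times as follows, and the cause was not tested. Fits within a title range hold fewer mice, and those among probes detected in all mice hold fewer genes. Below 100 they were 1 on the type I interferon and T cell scores, 6 on the monocyte and dendritic, 2 on the type 2, 7 on the proliferation and 0 on the antioxidant score. Above 100 the counts of members were 3 on the interferon gamma, 2 on the T cell and 2 on the monocyte and dendritic score. They were 9 on the proliferation, 0 on the endoplasmic reticulum stress and 4 on the antioxidant score. Over all genes tested, in the same order, 654, 537, 992, 1701, 233 and 1057 rose above 100. Over all mice 819, 1023, 1665, 2404, 1686 and 1673 rose. On the last 2 scores 433 and 1537 genes fell above 100, and 2517 and 2735 over all mice. With the first principal component as covariate the type I interferon score called 5 members, where 437 genes rose and 329 fell, against 507 and 496 without it. Among probes detected in all mice the monocyte and dendritic score called 3 members, where 477 of 9667 genes rose and 345 fell. With the mean of probes the antioxidant score called 15 members against 9, where 2096 genes rose and 2737 fell, against 1673 and 2735. The B cell score called 1 in place of 0 with the mean of probes, the title range as block, detected probes or the first principal component as covariate. In that order 562, 541, 623 and 725 genes rose with it, against 570 in the main fit. Correlated member pairs numbered 120 below 100 against 210 in all mice. Of 27 differences from a counterpart tested without a 2-level gene, 5 passed by r and rho over all mice, 2 below 100 and 0 above. Members with 2 levels numbered 7, and 8 with neqc values, with a separation of 2 SDs or over every kept probe.

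Direction reversed for Psmd2 on the type 2 score with the mean of probes (-0.0072), and for Psmd13 (0.017) and Psme2 (-0.0013) on the antioxidant score with the first principal component as covariate. Psmb9 slopes on the interferon gamma score with neqc values were 0.33 and 0.35 in its low and high level. Signals near background limit Psmd3, Psmd5 and Psmd9, whose lead probes were not detected in 96, 9 and 12 mice.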
